A study of Mus musculus with 28 samples.

Results

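The 8 genes described here, Ager, Hopx, Aqp5, Pdpn, Cldn18, Rtkn2, Emp2 and Cav1, mark alveolar type 1 cells of the lung. They were taken by name, as a list of known markers, out of the 18193 mouse genes that the arrays measured with a probe set of 1 gene symbol, and all 8 were measured. The question was how far each of them was lower in lung metastases than in normal lung, and whether the loss was the same from gene to gene. RNA of whole tissue was read on Affymetrix arrays in 9 lung metastases (LungMets), 11 primary mammary tumors (PT), 3 normal lungs (NL, lung parenchyma) and 3 normal mammary glands (NMG). The tumors came from JygMC(A), a mammary carcinoma line of the mouse whose tumors spread to the lung without further manipulation, given at 50000 cells in the 4th mammary gland. According to the labels PT were taken at day 30 and LungMets at day 50, while the study's methods remove PT between day 20 and day 30. The methods name the injected cells JygMC(A)-GFP/Luc, a line with a dual reporter, and inject the mammary fat pad, where the labels state a subcutaneous site. All tissues are from female BalbC nude mice. The methods give an age of 8 weeks for the mice given tumor cells, and of 6 to 8 weeks for the healthy donors of normal tissue. The NL and NMG donors received no tumor cells. Nude mice lack a thymus and mature T cells but keep B cells, natural killer cells and macrophages. A monolayer of JygMC(A) cells was read on 1 array and 3D spheres of them on another, both without host tissue, and neither entered a test.

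Alveolar type 1 cells are very thin, flat cells that cover most of the surface of the air sacs, and gases pass through them to the capillaries beneath. They are known for surface and junction proteins rather than for secretion. Ager encodes the receptor for advanced glycation end products, Aqp5 a water channel, Pdpn the membrane glycoprotein podoplanin, Cldn18 a claudin of tight junctions and Emp2 a membrane protein of the same family as Pmp22. Cav1 builds caveolae, small pits of the membrane, Hopx is a homeodomain protein that does not itself bind DNA, and Rtkn2 encodes rhotekin 2, a signalling protein. Several of them are known from other cells too, such as Pdpn in lymphatic endothelium and fibroblasts and Cav1 in endothelium and fat cells. In whole tissue, fewer cells of a type and less RNA per cell cannot be told apart, and this holds for every difference below.

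Before any result, a pair of arrays needs to be named. PT replicate 5 correlated at 0.989 with the mean of LungMets and at 0.968 with the mean of the other PT over all genes. LungMets replicate 9 correlated at 0.983 with the mean of PT and at 0.963 with the other LungMets. For all 8 genes PT replicate 5 lay within the range of LungMets, and for Ager, Hopx, Cldn18, Rtkn2 and Cav1 it stood more than 1 log2 unit above every other PT. The labels were kept, and results are given with and without these arrays. The labels also give a date that splits the arrays into 4 batches. The first holds 4 LungMets, 4 PT and the cell line arrays and the second 5 LungMets and 7 PT, the 2 arrays just named included. NL and NMG each form a batch of their own, so in comparisons with them date and tissue cannot be told apart. The labels title each tissue array a biological replicate and name no animals. The methods describe 1 or 2 fragments from each of 8 mice, for frozen tissue embedded for laser microdissection. Whether the array samples came from these mice is not stated, so some of the 20 tumor arrays may share a mouse. For the embedded tissue the methods take normal lung and mammary gland from 3 mice, so an NL and an NMG array may come from 1 animal. The p-values measure the spread between samples.

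The 8 genes lie on 8 chromosomes of the mouse (build GRCm38.p6, RefSeq). Ager spans chr17:34597460-34600937, Hopx chr5:77086986-77115123, Aqp5 chr15:99591028-99594829 and Pdpn chr4:143267409-143299564. Cldn18 spans chr9:99690796-99717267, Rtkn2 chr10:67979566-68058429, Emp2 chr16:10281749-10313968 and Cav1 chr6:17306335-17341328. The sequences around the transcript starts show which of the 8 genes share promoter features. RefSeq lists 10 starts for 7 of the 8 genes, among them the following 5, each with 250 bases before the start and 50 after it, 5′ to 3′ on the strand of the gene. Shown are Ager, Hopx, Aqp5, Emp2 and Cav1, which were chosen after their values were seen. The 6 letters of a GC box (GGGCGG, bound by Sp1 and its relatives) and of a site of NKX2-1 (CTCAAG), the lung's lineage factor, are in capitals where a search of both strands found them.
Ager, chr17:34597600-34597899, plus strand: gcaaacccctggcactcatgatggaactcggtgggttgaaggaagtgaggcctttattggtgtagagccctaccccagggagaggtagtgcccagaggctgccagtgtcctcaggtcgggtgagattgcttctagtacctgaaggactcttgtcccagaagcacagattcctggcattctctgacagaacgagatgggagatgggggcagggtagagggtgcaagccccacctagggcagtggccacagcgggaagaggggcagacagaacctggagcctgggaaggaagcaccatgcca
Hopx, chr5:77115074-77115373, minus strand: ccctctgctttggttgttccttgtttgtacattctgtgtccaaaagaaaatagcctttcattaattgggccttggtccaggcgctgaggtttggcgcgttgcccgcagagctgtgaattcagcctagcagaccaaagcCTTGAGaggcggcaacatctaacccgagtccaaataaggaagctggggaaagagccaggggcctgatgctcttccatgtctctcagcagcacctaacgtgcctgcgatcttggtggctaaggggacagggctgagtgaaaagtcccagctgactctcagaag
Aqp5, chr15:99590778-99591077, plus strand: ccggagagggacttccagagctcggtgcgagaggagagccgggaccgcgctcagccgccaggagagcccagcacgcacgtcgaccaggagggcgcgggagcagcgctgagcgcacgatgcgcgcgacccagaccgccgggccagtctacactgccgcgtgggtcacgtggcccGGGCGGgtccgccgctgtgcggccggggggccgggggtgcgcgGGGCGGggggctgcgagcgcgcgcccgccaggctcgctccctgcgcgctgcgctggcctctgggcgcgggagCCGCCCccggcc
Emp2, chr16:10313919-10314218, minus strand: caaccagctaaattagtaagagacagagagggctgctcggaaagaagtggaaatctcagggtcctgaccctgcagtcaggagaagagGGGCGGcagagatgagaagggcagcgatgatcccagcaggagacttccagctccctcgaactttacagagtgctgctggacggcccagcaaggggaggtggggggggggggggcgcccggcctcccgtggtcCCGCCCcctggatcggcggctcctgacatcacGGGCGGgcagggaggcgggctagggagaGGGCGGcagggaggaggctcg
Cav1, chr6:17306085-17306384, plus strand: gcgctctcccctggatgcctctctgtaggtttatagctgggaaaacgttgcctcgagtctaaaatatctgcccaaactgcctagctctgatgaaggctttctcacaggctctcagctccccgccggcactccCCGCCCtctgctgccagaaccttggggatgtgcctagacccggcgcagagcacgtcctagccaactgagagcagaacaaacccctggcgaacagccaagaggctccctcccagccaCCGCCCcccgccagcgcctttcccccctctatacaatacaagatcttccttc

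A GC box was found at Aqp5, Pdpn, Emp2 and Cav1, in 4 of the 10 windows, and 35.7% of all 32851 promoters of the same length hold one. Aqp5 had 3 of them and Emp2 had 4, while the windows of Ager, Hopx and Cldn18 held none. The window of Ager begins at 34597600, inside the span of the gene, which begins at 34597460, so the start of that span was not searched. The letters of the NKX2-1 site stood in 2 of the 10 windows, near the 15.9% of all promoters that hold them. Both were windows of Hopx, with the match on the opposite strand, in the one shown 112 bases before the start. GGAATG, the letters bound by TEAD factors, was found in 0 of the 10 windows and in 14.7% of all promoters. These motifs do not overlap each other in the windows, and a match or its absence describes letters only.

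The genes were compared between the normal tissues, which can show a higher level in lung but not the cell type. All 3 NL exceeded all 3 NMG for each of the 8 genes, and no share of all genes is given for this. Limma called 6 of them higher in NL, where 14.3% of all genes were called higher and 14.5% lower. Cldn18 stood 7.52 ± 1.24 (SE) log2 units higher in NL than in NMG, Ager 7.24 ± 1.42, Rtkn2 5.93 ± 0.729, Hopx 5.45 ± 0.929, Emp2 4.15 ± 0.392 and Pdpn 2.56 ± 0.555 (adjusted p at most 0.000852). Aqp5 was 1.83 ± 0.857 higher (adjusted p = 0.120) and Cav1 0.98 ± 0.645 higher (adjusted p = 0.296), and neither passed. A second list of 24 genes of alveolar type 1 cells, of which 22 were measured, had 21 higher and 0 lower in NL by limma. Lists of other lung cells rose too, with 10 of 11 genes higher for alveolar type 2 cells and 5 of 6 for club cells. For ciliated cells it was 6 of 6, for blood endothelium 12 of 12 and for mesothelium 6 of 6. Lymphatic endothelium had 1 of 5 higher and 1 lower, fibroblasts 1 of 8 higher and 3 lower, and adipocytes 5 of 5 lower.

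**Figure D1:**
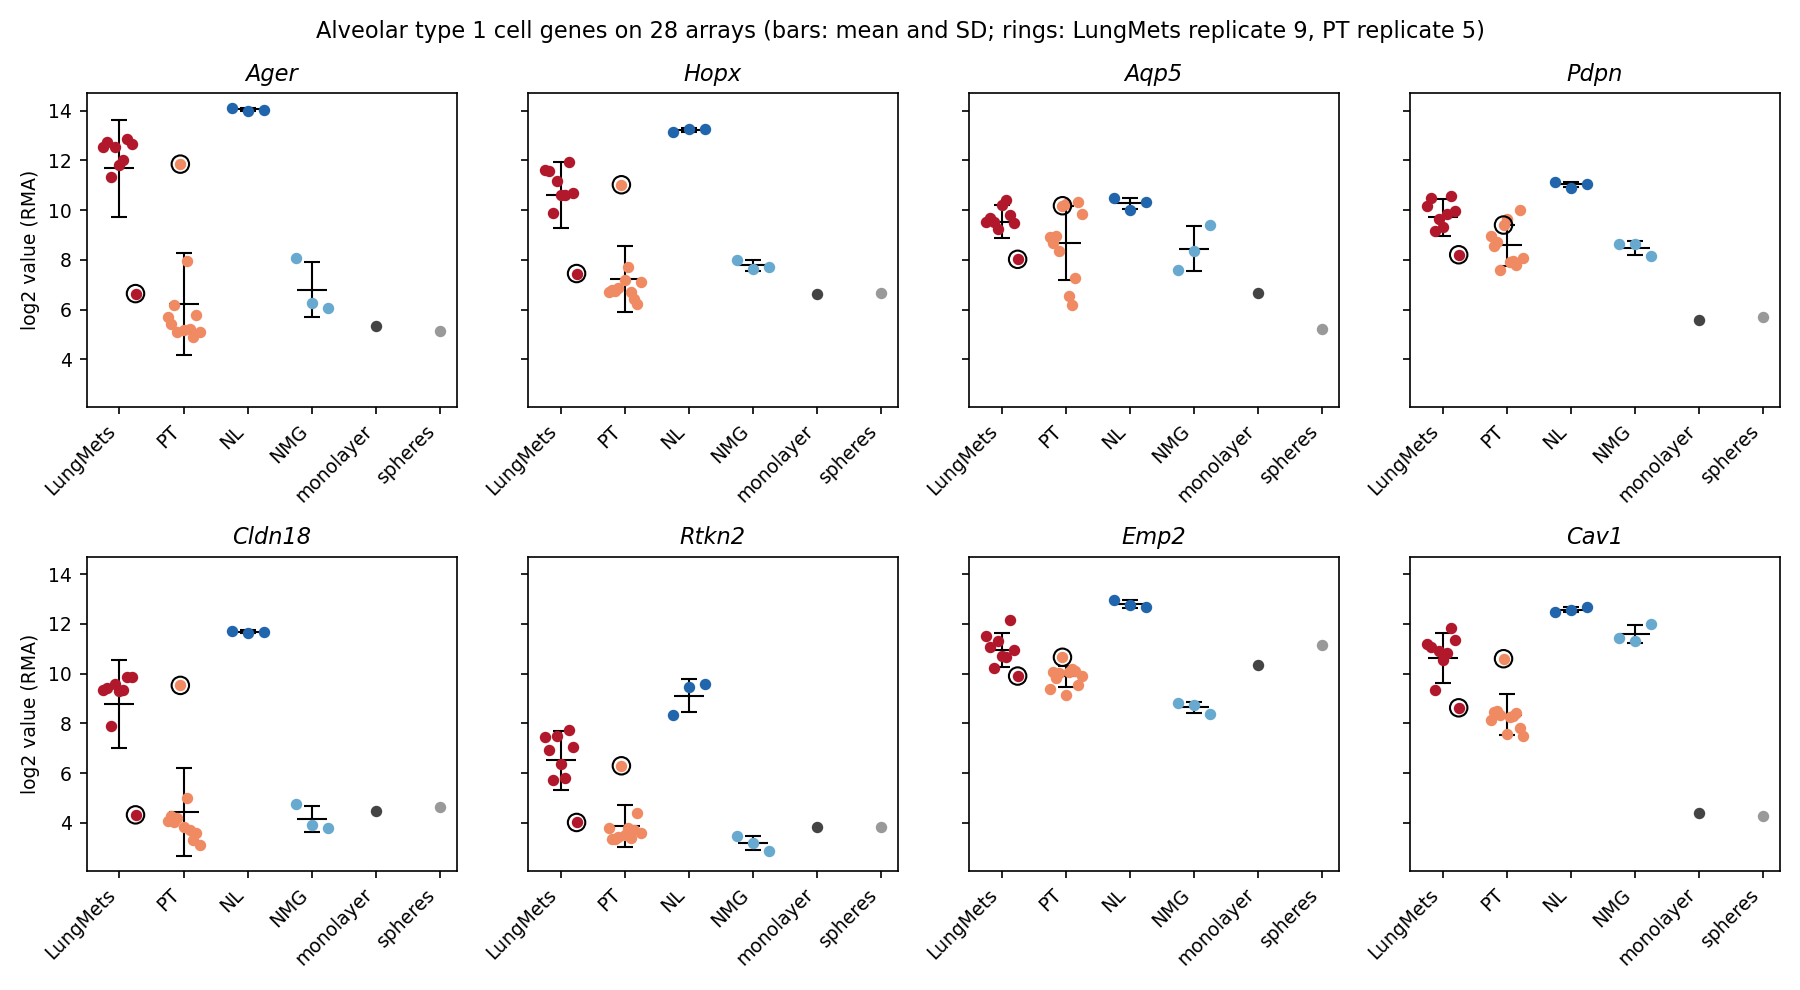
Log2 values (vertical axis, RMA, log2 units) of the 8 genes on 28 arrays, 1 panel per gene, with a point per array, the mean and SD where a group has more than 1 array, and rings around LungMets replicate 9 and PT replicate 5. Ager, Hopx, Cldn18 and Rtkn2 form a high lung group and a low group with the ringed arrays on the other side, Emp2 stays high in the cell lines, and Cav1 is as high in NMG (11.32 to 12.01) as in the highest LungMets (11.85).

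In LungMets, 6 of the 8 genes were lower than in NL: Cldn18, Hopx, Rtkn2, Cav1, Emp2 and Pdpn. Their levels fell to between 13.3% and 39.9% of NL when the log2 difference is turned into a share. None was higher, and over all genes 22.4% were called lower and 23.8% higher. The median difference of the 8 genes was -2.15 log2 units, beside 0.05 over all genes. Ager and Aqp5 did not pass. For 7 genes all 9 LungMets lay below all 3 NL, and for Aqp5 7 of 9 did. No share of all genes that separate in this way is given here or below. Such counts therefore describe the 8 genes only.

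Cldn18, the claudin, had the largest difference. It lay from 4.32 to 9.88 in LungMets with a median of 9.35, against 11.73, 11.63 and 11.69 in NL. No LungMets reached the lowest NL, and LungMets replicate 9 was far below the others, whose lowest value was 7.89. The difference was -2.91 ± 1.01 (SE, adjusted p = 0.0208), 13.3% of NL. Without PT replicate 5 and LungMets replicate 9 it was -2.35 ± 0.347 (adjusted p = 7.58e-06), 19.6% of NL.

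Hopx, the homeodomain protein, ranged from 7.45 to 11.92 in LungMets (median 10.67) and measured 13.12, 13.28 and 13.26 in NL. All LungMets were below NL by more than 1 log2 unit, and the 3 NL lay close together. The difference was -2.61 ± 0.758 (adjusted p = 0.00649), and -2.22 ± 0.317 without both arrays. Rtkn2, the signalling protein, lay from 4.02 to 7.73 in LungMets (median 6.93) and at 8.35, 9.44 and 9.57 in NL. NL replicate 1 was the low one of the 3, yet it still exceeded every LungMets. The difference was -2.61 ± 0.596 (adjusted p = 0.000864), and -2.30 ± 0.356 without both arrays.

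Cav1, the caveolar coat protein, lay from 8.63 to 11.85 in LungMets (median 10.89), against 12.49, 12.58 and 12.66 in NL. LungMets replicates 9 and 3 were the low ones, at 8.63 and 9.36. The difference was -1.94 ± 0.527 (adjusted p = 0.00392). Emp2 lay from 9.90 to 12.17 in LungMets (median 10.96) and at 12.97, 12.75 and 12.68 in NL, so the groups did not overlap, although LungMets replicate 7, at 12.17, came near the lowest NL. Its difference of -1.85 ± 0.320 had the smallest error and the lowest adjusted p of the 8 genes (3.98e-05). Pdpn, podoplanin, lay from 8.21 to 10.58 in LungMets (median 9.84) and at 11.13, 10.91 and 11.06 in NL. It fell by less, -1.32 ± 0.453 (adjusted p = 0.0190), to 39.9% of NL.

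Ager, the receptor, ranged from 6.64 to 12.85 in LungMets with a median of 12.55, against 14.12, 13.99 and 14.04 in NL. Of the 9 LungMets, 8 lay between 11.35 and 12.85, and replicate 9 was the exception. Its difference of -2.36 ± 1.16 did not pass (adjusted p = 0.0992), with a 95% confidence interval from -4.75 to 0.03, although all LungMets were below all NL. Without PT replicate 5 and LungMets replicate 9 the difference was smaller, -1.73 ± 0.483, and passed (adjusted p = 0.00525), with an SD of LungMets of 0.53 in place of 1.95. Leaving out LungMets replicate 9 alone gave the same difference with a larger error, as PT replicate 5 then still adds to the shared spread, and it did not pass (-1.73 ± 0.946, adjusted p = 0.139). Aqp5, the water channel, lay from 8.02 to 10.43 in LungMets (median 9.51), against 10.47, 10.02 and 10.32 in NL. LungMets replicates 5 and 6, at 10.20 and 10.43, fell inside the range of NL. The difference of -0.73 ± 0.700 did not pass (adjusted p = 0.413), nor did -0.54 ± 0.667 without both arrays (adjusted p = 0.534). The interval of the first, from -2.17 to 0.71, includes losses as large as that of Cav1. With both arrays left out 7 of the 8 genes were lower, and 22.5% of all genes. NL has 3 arrays, and leaving out any of them ended the call of Cldn18 (adjusted p from 0.0579 to 0.0622), and leaving out NL replicate 1 or 3 ended that of Pdpn (0.0643 and 0.0607).

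**Figure D2:**
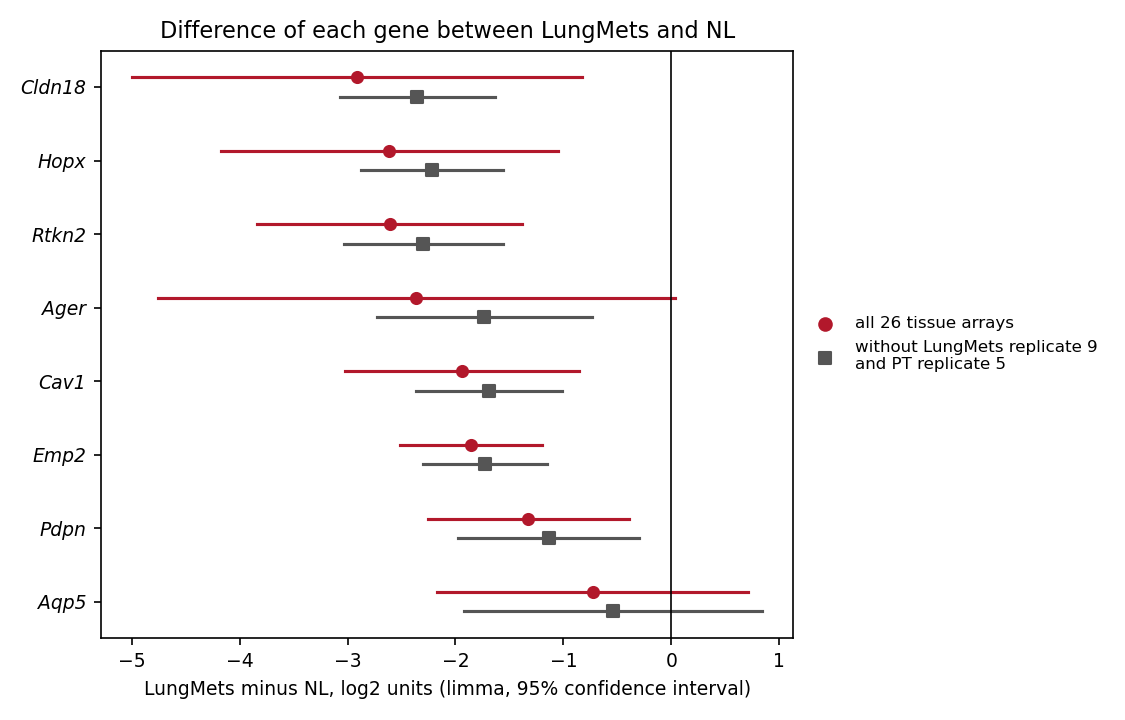
Difference of LungMets minus NL for each gene (horizontal axis, log2 units) with its 95% confidence interval from limma, over all 26 tissue arrays (circles) and without LungMets replicate 9 and PT replicate 5 (squares). Cldn18 shows the largest difference (-2.91) and Aqp5 the smallest (-0.73), and the interval of Ager crosses 0 only with all arrays.

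The loss was then compared gene by gene, as the difference between 2 genes within each array, which shows unequal change only. An exact permutation test over the 220 splits of 9 LungMets and 3 NL was run for all 28 pairs of genes (two-sided, smallest possible p = 0.00455). With all arrays 10 pairs had an unadjusted p under 0.05, and 0 passed after adjustment over the 28 pairs (lowest adjusted p = 0.127). Without LungMets replicate 9, 8 pairs passed (8 LungMets, smallest possible p = 0.00606, lowest adjusted p = 0.0339). The call of unequal loss therefore rests on leaving out that array.

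The 8 pairs placed Cldn18 and Hopx on the side of the larger loss and Aqp5 and Pdpn on that of the smaller. Without LungMets replicate 9, Cldn18 fell by 1.81 log2 units more than Aqp5, and all 8 LungMets showed a wider gap than every NL (exact p = 0.00606, adjusted p = 0.0339). Cldn18 also fell more than Pdpn, Cav1 and Ager, by 1.22, 0.66 and 0.62. Hopx fell by 1.68 more than Aqp5 and by 1.08 more than Pdpn, in 8 of 8 LungMets each. Ager lay between, with a loss 0.59 greater than that of Pdpn and 1.19 greater than that of Aqp5. Rtkn2, with a loss of -2.30 beside -2.22 for Hopx and -2.35 for Cldn18, had no pair that passed. It fell by 1.16 more than Pdpn and by 1.76 more than Aqp5 (exact permutation, adjusted p = 0.0679 and 0.0898). The SD of these 2 gaps over NL was 0.75 and 0.85. Emp2, Cav1 and Ager had losses of -1.72, -1.69 and -1.73, and no pair of these 3 passed (exact p = 0.903 for Emp2 and Cav1 and 0.964 for Ager and Emp2). With LungMets replicate 9 the same 8 pairs had differences of the same sign, and adjusted p between 0.127 and 0.331.

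As a share of mean NL, the 9 LungMets held a median of 59.1% for Aqp5, 43.8% for Pdpn, 35.3% for Ager, 31.1% for Cav1, 27.9% for Emp2, 21.9% for Rtkn2, 19.8% for Cldn18 and 17.1% for Hopx. Single LungMets arrays ranged widely. The lowest share, in LungMets replicate 9, was 0.590% for Ager and 0.608% for Cldn18 but 21.0% for Aqp5. Without that array the lowest shares were 7.20% (Cldn18), 9.51% (Rtkn2), 9.81% (Hopx), 10.7% (Cav1), 15.4% (Ager), 16.9% (Emp2), 27.0% (Pdpn) and 48.9% (Aqp5).

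The LungMets arrays kept much the same order from gene to gene, apart from Aqp5. LungMets replicate 7 held the highest level of Ager, Hopx, Pdpn, Rtkn2, Emp2 and Cav1, and replicate 3 was the second lowest for all genes but Aqp5. For Aqp5 replicates 6 and 5 were highest, though they ranked 5 to 7 of 9 for the other 7 genes. Among the 8 LungMets other than replicate 9, levels correlated with Ager at a Pearson r between 0.825 (Emp2) and 0.925 (Cav1) for 6 genes, with Spearman's rank correlation between 0.762 and 0.881. For these 6, adjusted p over the 7 relations was between 0.00174 and 0.0121 for r and between 0.0250 and 0.0429 for the rank correlation (exact permutation of 40320 orders). For Aqp5 r was -0.30 (adjusted exact p = 0.471) and the rank correlation was -0.12. The 2 LungMets farthest from the median of Ager, replicates 3 and 5, were then also left out. With the 6 LungMets that remained, r was 0.591 to 0.839 for the 6 genes and none passed (adjusted exact p = 0.210). With the mean of each date batch taken off, r over the same 8 LungMets was 0.825 to 0.982 for the 6 genes and -0.43 for Aqp5. A single batch holds 4 or 5 LungMets, fewer than the 6 set as the minimum for a correlation.

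**Figure D3:**
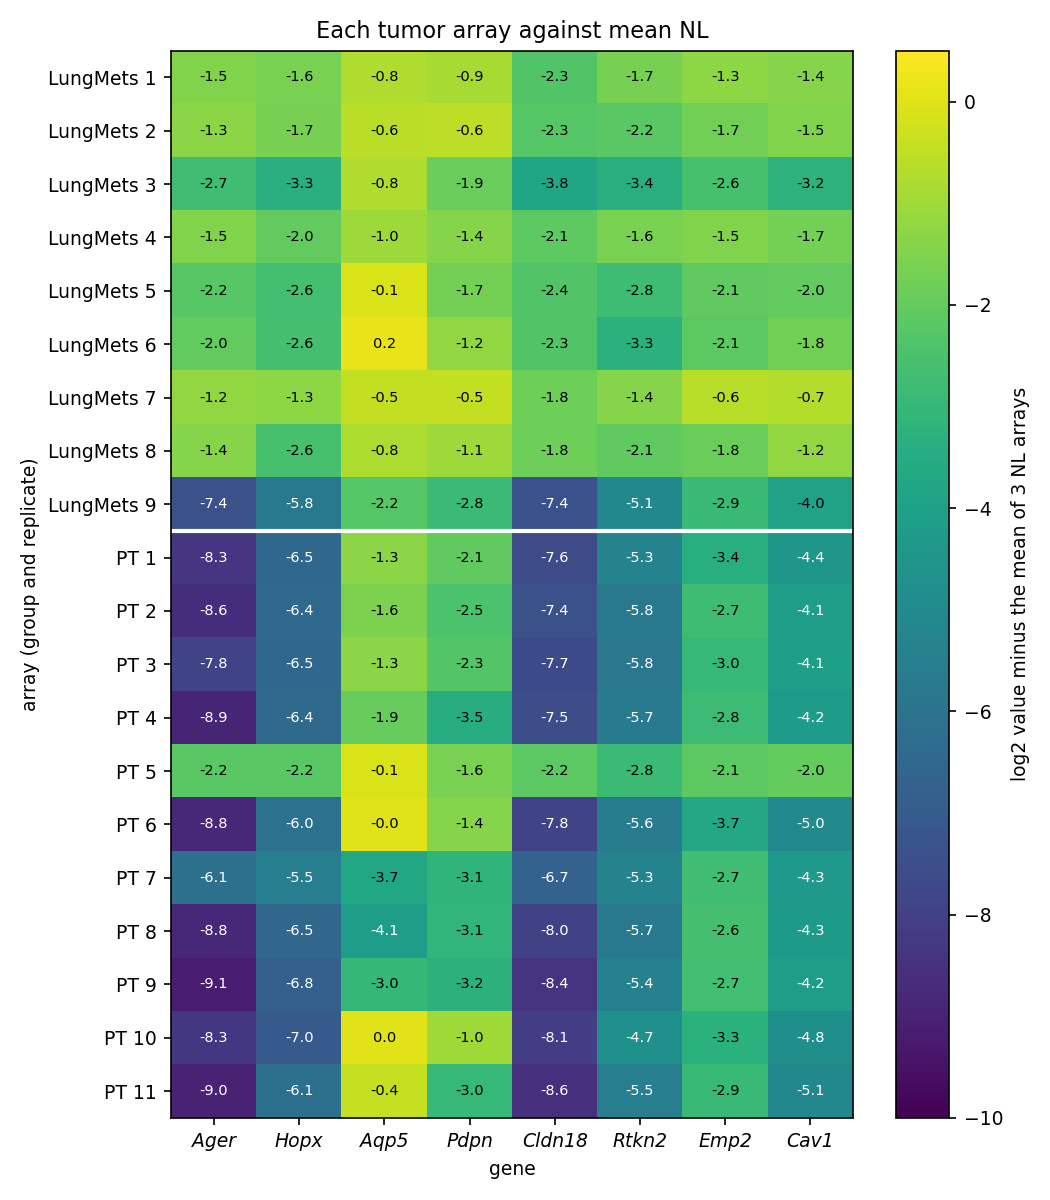
Log2 value of each gene (columns) on each LungMets and PT array (rows, LungMets above PT) minus the mean of 3 NL arrays, by colour and printed in each cell in log2 units. LungMets replicate 9 looks like the PT rows (Ager -7.4) and PT replicate 5 like the LungMets rows (Ager -2.2), and Aqp5 is close to NL on some PT.

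Against PT, 7 of the 8 genes were higher in LungMets. Of all genes, 9.03% were called higher and 6.13% lower (6.91% and 20.7% with each array centred on its median). The median difference of the 8 genes was 2.46 log2 units, beside -0.02 over all genes. Ager was 5.46 ± 0.782 higher (adjusted p = 0.000119), Cldn18 4.35 ± 0.681, Hopx 3.38 ± 0.511, Rtkn2 2.64 ± 0.402 and Cav1 2.28 ± 0.355. Pdpn (1.11 ± 0.305, adjusted p = 0.0147) and Emp2 (1.05 ± 0.216, adjusted p = 0.00172) rose by less. Aqp5 had a difference of 0.86 ± 0.472 and did not pass (adjusted p = 0.241).

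In PT the median of Ager was 5.43, and all PT other than replicate 5 lay between 4.91 and 7.94. Hopx lay between 6.21 and 7.72, Cldn18 between 3.12 and 5.00 and Rtkn2 between 3.34 and 4.39 on those 10 arrays. PT replicate 5 stood at 11.85, 11.02, 9.53 and 6.29 for these 4 genes. On all arrays none of the 8 genes had every LungMets above every PT, and Emp2 came nearest, with 7 of 9. Without PT replicate 5 and LungMets replicate 9, all 8 remaining LungMets exceeded all 10 PT for Ager, Hopx, Cldn18, Rtkn2, Emp2 and Cav1. No share of all genes is given for this separation. Limma called 10.9% of all genes higher on the remaining arrays, which is a different measure. Ager was then 6.66 ± 0.339 higher and Cldn18 5.42 ± 0.243. Emp2 overlapped on its other probe sets. On 1425272_at LungMets replicates 2, 3 and 6, at 7.82, 7.62 and 8.296, lay below PT replicate 7, at 8.303. On 1425273_s_at LungMets replicate 8, at 5.92, lay below every PT, of which replicate 6 was lowest at 5.93. LungMets replicates 3 and 6 there, at 6.50 and 6.61, lay below PT replicates 7, 8 and 11, at 6.73, 6.76 and 6.93. With all arrays 1425272_at gave 0.82 (limma adjusted p = 0.0386) and 1425273_s_at gave 0.53, which did not pass (adjusted p = 0.0942). Pdpn overlapped between the groups, as 3 of 8 LungMets exceeded every PT, and so did Aqp5, where 1 of 8 did (difference 1.20 ± 0.467, adjusted p = 0.0750). Markers of other lung cells were higher in the same comparison, 10 of 11 for alveolar type 2 cells, 5 of 6 for club cells and 10 of 12 for blood endothelium, and their part was not tested.

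The 2 date batches that hold both tissues were also compared. Within batch 1, fitted alone with 4 LungMets and 4 PT, 7 of the 8 genes were higher, Aqp5 among them and Pdpn not (1.41, adjusted p = 0.0522), and 5.63% of all genes. Within batch 2, which holds both arrays that stand apart, 0 of the 8 genes passed in limma (lowest adjusted p over all genes = 0.205, 0 genes called, 6 of the 8 with an unadjusted p under 0.05), and 6 passed without them, where 4.15% of all genes were higher. A fit of all tissue arrays with a mean for each tissue and batch called Ager, Hopx, Cldn18, Rtkn2 and Cav1 higher in both batches, where 2.58% of all genes were in batch 1 and 3.45% in batch 2. Their differences in batch 2 were 4.63, 2.77, 3.96, 2.10 and 2.29 (adjusted p from 0.0183 to 0.0231). In that fit Aqp5 did not pass in batch 1 (0.76, adjusted p = 0.846). The difference between batches of LungMets minus PT was tested for every gene, and 0 of 18193 passed (0%, with 652 genes and 0 of the 8 at an unadjusted p under 0.05). The test without both arrays called 1 gene, none of the 8.

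Aqp5 was high on some PT. It ranged from 6.17 to 10.31 over all PT, and PT replicates 10, 6 and 5, at 10.31, 10.26 and 10.18, lay within the range of NL. Ager was 5.76 and 5.20 on PT replicates 10 and 6, and Cldn18 was 3.58 and 3.85 there, while both were high on PT replicate 5. Pdpn ranged from 7.57 to 10.02 over PT, and its highest values, 10.02 and 9.62, were again on PT replicates 10 and 6. Hopx was 6.21 and 7.19 on PT replicates 10 and 6. Over the 26 tissue arrays Pearson's r between Ager and the others was 0.987 for Cldn18, 0.978 for Hopx and 0.942 for Rtkn2, and 0.822 for Emp2, 0.818 for Pdpn, 0.788 for Cav1 and 0.537 for Aqp5. These values describe arrays that share 4 tissues, so they carry no p.

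**Figure D4:**
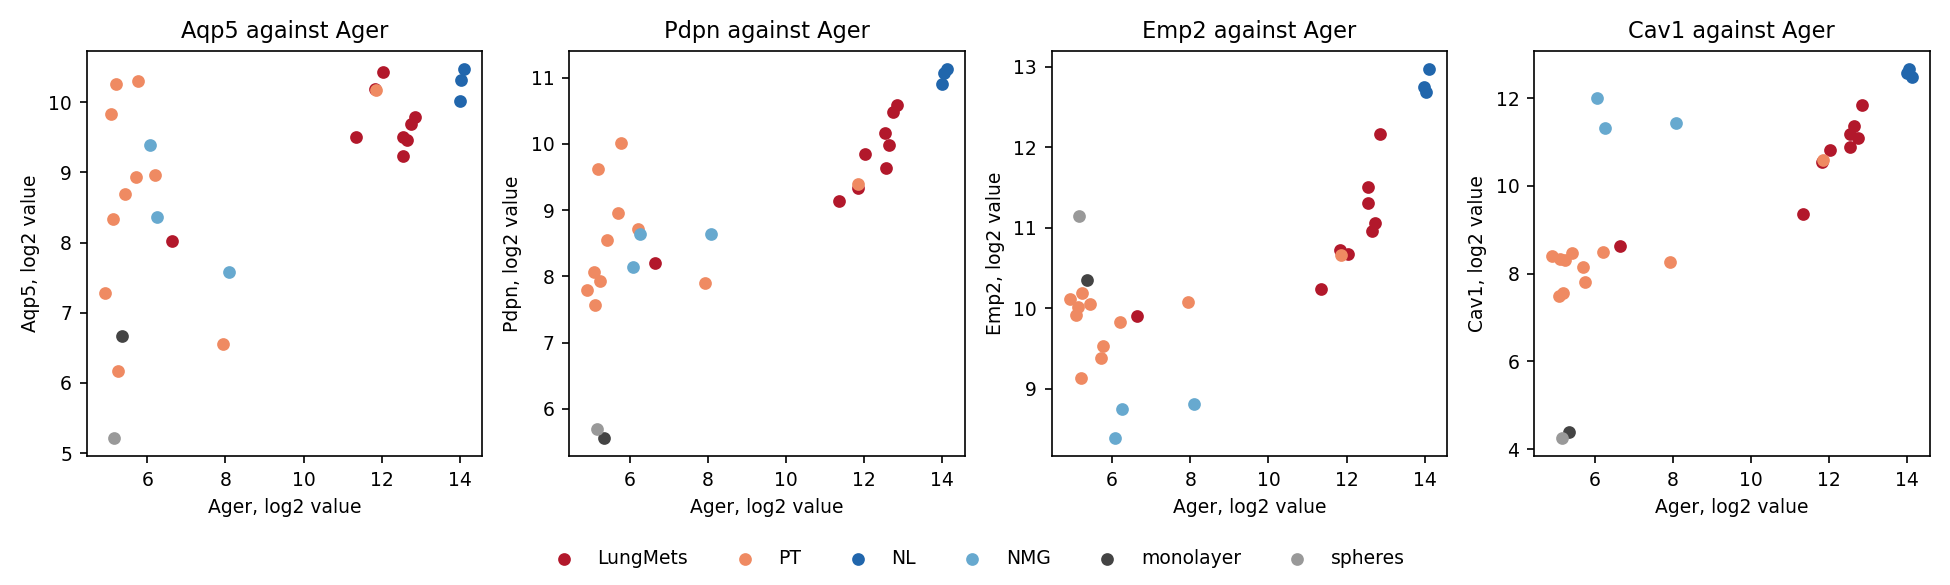
Log2 value of Aqp5, Pdpn, Emp2 and Cav1 (vertical axes, each with its own scale) against that of Ager (horizontal axis) on 28 arrays, 1 point per array, coloured by group. At Ager of 8.09 or lower, Aqp5 spans 5.22 to 10.31 and Cav1 spans 4.26 to 12.01, while over LungMets and NL Pdpn, Emp2 and Cav1 rise with Ager.

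Against normal mammary gland 6 of the 8 genes were called, and whether the genes differed from each other there was not tested. For Ager, Hopx, Cldn18, Rtkn2, Emp2 and Pdpn LungMets were higher than NMG, by 1.23 to 4.88 log2 units (adjusted p at most 0.0320), while 23.1% of all genes were called higher and 17.9% lower. Leaving out any 1 NMG array ended the call of Pdpn (adjusted p from 0.0645 to 0.142). Aqp5 differed by 1.10 ± 0.700 and did not pass (adjusted p = 0.219), with LungMets between 8.02 and 10.43 and NMG at 7.58, 8.36 and 9.39. Cav1 was the exception in direction. It averaged 10.64 ± 1.02 (SD, n = 9) in LungMets against 11.59 ± 0.365 in NMG (n = 3). The difference of -0.96 ± 0.527 did not pass (adjusted p = 0.151).

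PT against NMG gave 2 calls among the 8 genes, where 26.7% of all genes were called higher and 21% lower. Cav1 was lower in PT by -3.24 ± 0.515 log2 units (adjusted p = 1.30e-05), 10.6% of NMG, with all 11 PT between 7.48 and 10.60 and NMG at 11.44, 11.32 and 12.01. Emp2 was higher by 1.25 ± 0.312 (adjusted p = 0.00184), with all 11 PT between 9.13 and 10.66 and NMG at 8.81, 8.74 and 8.39. The groups did not overlap for either gene. Fat cells and blood endothelium, which also express Cav1, had 5 of 5 and 8 of 12 markers lower in PT. The mean of the fat cell list was 4.67 to 7.18 in PT, against 11.48 to 12.05 in NMG, and that of the endothelial list 5.02 to 7.65 in PT, against 7.47 to 7.82 in NMG, and their part in the difference of Cav1 was not tested. Without PT replicate 5 and LungMets replicate 9, Hopx (-0.93 ± 0.308, adjusted p = 0.0159) and Ager (-1.15 ± 0.470, adjusted p = 0.0468) were also lower. That made 4 calls, where 27.4% of all genes were called higher and 21.5% lower. NMG replicate 1 had the highest Ager of NMG, 8.09 against 6.26 and 6.07.

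In mean level, NL was highest and LungMets next for Ager, Hopx, Cldn18, Rtkn2 and Emp2, and these neighbours differed in the test for all but Ager. The 2 low groups, PT and NMG, did not differ in the test for Ager, Hopx, Cldn18 and Rtkn2. For Emp2 PT exceeded NMG, though not in the test of the probe set 1425272_at. For Pdpn and Aqp5 the order was again NL, LungMets, PT and NMG. Aqp5 differed between no neighbours, Pdpn differed between NL and LungMets and between LungMets and PT, and PT and NMG did not differ for Pdpn (0.12 ± 0.442, adjusted p = 0.847). Cav1 ran NL, NMG, LungMets and PT, and among these neighbours only LungMets and PT differed in the test, given that NL against NMG and LungMets against NMG did not pass.

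Cultured JygMC(A) cells, which contain no lung, gave single values without replicate error. Ager was 5.35 in the monolayer and 5.15 in spheres, within the range of the PT other than replicate 5. Hopx (6.63 and 6.67), Cldn18 (4.49 and 4.62) and Rtkn2 (3.82 and 3.82) were likewise at the level of PT. Genes on the Y chromosome, which female mice lack, averaged 2.86 to 3.23 over the tissue arrays and give an idea of the floor. Emp2 was bright in the cells, 10.35 in the monolayer and 11.15 in spheres, above the PT median of 10.02, and the spheres were above the LungMets median of 10.96. Cav1 was 4.39 and 4.26 in the cells, more than 3 log2 units below every PT. Pdpn (5.57 and 5.70) was also below every PT, and Aqp5 was 6.67 in the monolayer and 5.22 in spheres. Of the 8 genes only Emp2 exceeded 7 log2 units in the cells.

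For Ager, Hopx, Cldn18 and Emp2 the array has further probe sets of the same symbol. For Hopx and Cldn18 the second probe set gave differences of -2.51 and -3.21 between LungMets and NL, and for Ager 1420428_at gave -2.51 and passed (adjusted p = 0.0341), where the main probe set did not. Emp2 had 3 probe sets, and they disagreed in size. The main one, 1433670_at, gave -1.85 and 1425273_s_at gave -1.73, while 1425272_at averaged 8.58 ± 0.659 in LungMets (n = 9) against 12.14 ± 0.423 in NL (n = 3), a difference of -3.56. The gap between this and the main probe set was -1.71 log2 units (exact permutation p = 0.00455, the smallest possible, adjusted p = 0.0227 over the 5 probe sets compared). By that probe set Emp2 had a larger difference than Cldn18, so the place of Emp2 among the 8 depends on the probe set.

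Other genes of the same cells and machinery were counted from lists, beside the 22.4% of all genes that were lower in LungMets than in NL and the 23.8% that were higher. Of 22 further alveolar type 1 genes, 17 were lower in LungMets than in NL and 0 higher (median -1.81). Clic5, an intracellular chloride channel protein, fell most in this list, by 3.40 log2 units (adjusted p = 0.000647), and Akap5 (-2.21) and Gprc5a (-1.37) also fell. Against PT 19 of the 22 were higher in LungMets and 0 lower. Of 6 other genes of caveolae, the structures built by Cav1, 5 were lower than in NL, with Cavin2 and Ehd2 both at -2.39 and Cav2 at -1.38. The one that did not pass was Cavin3, with a difference of 0.42 (adjusted p = 0.0724).

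Regulators split. Of 13 measured, 7 were lower in LungMets than in NL and 0 higher. Tbx2 (-2.63) and Gata6 (-2.48), transcription factors of lung development, fell. Yap1, which encodes a coactivator of TEAD factors, did not pass (-0.39 ± 0.212, adjusted p = 0.131). Nkx2-1 read low on every tissue, 4.78 ± 0.142 in LungMets (SD, n = 9) and 5.04 ± 0.205 in NL (n = 3). Its difference of -0.26 did not pass (adjusted p = 0.0757). Among 8 genes of partners of the proteins, 3 were lower and 1 higher, near the shares of all genes, and without the 2 arrays that stand apart 2 were lower. They are named because of their calls. Tjp1 (-1.08), which anchors claudins, Rhoa (-0.54), a small GTPase, and Clec1b (-1.22), the receptor of podoplanin, fell, and S100b, a ligand of the Ager receptor, was higher by 2.20 (adjusted p = 0.00103).

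Markers of several other cells were also lower. Blood endothelium had 12 of 12 markers lower in LungMets than in NL (median -2.56), with a list mean between 6.51 and 9.06 in LungMets and between 10.33 and 10.39 in NL. Pecam1 (-3.38), Cldn5 (-3.41), Cdh5 (-2.23) and Vwf (-2.01) were among them. Alveolar type 2 cells had 5 of 11 lower (median -1.90), with list means of 7.37 to 11.60 in LungMets and 12.38 to 12.41 in NL, and 9 of 11 without both arrays. Sftpb (-2.27) fell, and Sftpc differed by -1.29 ± 1.48 (adjusted p = 0.502). Club cells had 4 of 6 lower, ciliated cells 6 of 6, mesothelium 4 of 6, and adipocytes 4 of 5. Lymphatic endothelium, with 1 of 5, and fibroblasts, with 2 of 8, were near the 22.4% of all genes. The 3 Y-linked genes gave 0 calls. Of mammary epithelium, 2 basal markers were higher and 1 lower of 7, and 2 luminal markers were lower of 7. Cav1 is also expressed in blood endothelium, and the share of these other cells in any difference was not tested.

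The same markers differed on the arrays that stand apart. The mean of the alveolar type 2 list was 10.76 on PT replicate 5, against 6.71 as the median of PT, and 7.37 on LungMets replicate 9, against 11.32 as the median of LungMets. The adipocyte list averaged 7.45 on LungMets replicate 9, the highest of LungMets, and 4.67 on PT replicate 5, the lowest of PT. What sets these arrays apart was not tested.

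The genes most like each of the 8 across the 26 tissue arrays were found by Pearson's r over all genes. Closest to Ager were Sftpa1 (0.996), Sftpd (0.993) and Slc34a2 (0.989), genes of alveolar type 2 cells. Cldn18 had Slc34a2 (0.994), Sec14l3 (0.991) and Lgi3 (0.989), and Rtkn2 had Foxa2 (0.993), Tcf21 (0.989) and Sftpb (0.984). Hopx was closest to Limch1 (0.985), Col4a3 (0.984) and Tbx4 (0.984), of which Limch1 and Col4a3 stand in the list of further alveolar type 1 genes. Cav1 was closest to Adh1 (0.979), Pmp22 (0.976) and Plcb4 (0.975), and Emp2 to Ttll7 (0.967), Krt80 (0.956) and Adgrl3 (0.950). Pdpn had Tmtc1 (0.945), Gal3st1 (0.939) and Angpt1 (0.936). The closest to Aqp5 was Lysmd2 (0.945), which averaged 7.54 in LungMets and 7.92 in NL, followed by Hspa2 (0.917) and Abcd3 (0.910). No p is given, as the arrays share tissues and date batches.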

How the data were processed

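RNA of 26 tissue samples and 2 cultures was hybridised to Affymetrix mouse arrays. The authors normalised them by RMA in Partek 6.6, and the deposited values are on the log2 scale with array medians of 5.00 to 5.18. The RMA version is not given in the sources used here. RMA brings the arrays to 1 distribution, so values compare genes between arrays and not 1 gene's level with another's. The number of arrays limits the precision.

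Of 45101 probe sets, 34958 carry 1 gene symbol, 932 carry several and 9211 carry none. Control probe sets (13) were left out, and each of 18193 genes was taken at whichever of its probe sets averaged highest over 26 tissue arrays. Groups came from the labels. Each gene was fitted with limma 3.58.1 in R 4.3.3 (lmFit and eBayes, 1 mean per group, two-sided), the Benjamini-Hochberg adjustment ran across the 18193 genes, and a gene was called at an adjusted p under 0.05. A ± after a difference is its SE. NL against NMG served to show which genes were higher in lung, and it does not tell lung cell types apart. In pairs of genes the within-array difference was tested by exact permutation (scipy 1.17.1). The correlations with Ager used all orders of the LungMets arrays in place of the random draws first planned.

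Up to 4 genes of each list are named, the defining ones and the called one with the largest difference between LungMets and NL, and for each of the 8 genes the 3 with the highest Pearson r. Genes named beyond this rule were named after their values were seen. The 8 genes, the lists and the alternatives were chosen with earlier results of these data known. The lists are further alveolar type 1 genes, caveolae, regulators, partners, alveolar type 2, club and ciliated cells, blood and lymphatic endothelium, mesothelium, fibroblasts, adipocytes, basal and luminal mammary epithelium and Y-linked genes. On simulated normal values with 1 spread per gene for all groups, LungMets against NL called 34% of genes shifted by 0.5 log2 units. At shifts of 1, 2 and 4 it called 72%, 96% and 100% (50 genes each), and it called 9 of 17993 others. Real spreads differed between groups, as with Ager, whose SD was 1.95 in LungMets and 0.0639 in NL. These shares need not hold for such genes. Alternatives changed the date terms, probe sets, filter, centring, weights and samples.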

Additional observations from a re-analysis of the deposited data

Results flagged for a closer look

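In LungMets replicate 9 the values of Ager (6.64), Hopx (7.45), Aqp5 (8.02) and Cldn18 (4.32) lay apart from the other 8 LungMets, with a gap to the next array that is large against the range of the group by Dixon's test. Chance marks about 1 in 20 groups in this way, and the 4 values come from a single array, which was the lowest of LungMets for all 8 genes.

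The arrays of cultured JygMC(A) cells entered no comparison, and 2 genes were above every NMG array on both. Rtkn2 was 3.82 in the monolayer and 3.82 in spheres, with NMG at 3.48, 3.20 and 2.88, all of them low on the scale of the arrays. Emp2 was 10.35 in the monolayer and 11.15 in spheres, with NMG at 8.81, 8.74 and 8.39. Each culture is a single array, so these values carry no error.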

How the results depend on the processing

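For single genes, 577 values under the alternatives kept their direction and their side of the threshold, 16 passed where the reported value did not, 20 no longer passed and 7 changed sign. All changes of sign were in PT against NMG and none of those values had passed in the reported fit. Pdpn (0.12) was -0.086 with array weights, Ager (-0.59) was 0.077 with the probe set 1420428_at, and Cldn18 (0.26) was -0.25 without PT replicate 5, alone or together with LungMets replicate 9. Without 1 NMG array Ager ranged from -0.95 to 0.056, Aqp5 from -0.19 to 0.71 and Pdpn from -0.048 to 0.20.

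Of counts of the 8 genes, LungMets against PT gave 0 within date batch 2 (7 in the reported fit, 6 within that batch without the 2 arrays that stand apart, and 5 in batch 2 in the fit of all tissue arrays), with differences for those 5 of 2.10 to 4.63, and PT against NMG gave 4 without those arrays, where the fit with all gave 2. The pairs of genes with unequal loss numbered 8 without LungMets replicate 9 and 0 with it. Leaving out 1 NL array left 4 or 5 of the 8 genes called in LungMets against NL, and leaving out 1 NMG array left 5 in LungMets against NMG, where all arrays gave 6. Of all genes, 18.2% to 19.9% were then called lower than in NL, and 15% to 17.8% higher than in NMG. Over all genes, calls of LungMets against NL (8407) were 5299 with genes under the median level left out and 2961 with a fold of over 2 asked for. Those of LungMets against PT (2758) were 5024 after centring on the median, 4156 with weights, 1392 and 0 within date batches 1 and 2, and 564 with the fold. Centring moved its split to 1257 higher and 3767 lower, where 1642 were higher and 1116 lower. Those of LungMets against NMG (7465) were 4261 with the filter and 2422 with the fold, those of PT against NMG (8671) 5341 and 3137, and those of NL against NMG (5251) 3228 and 2738, and 8061 with weights.

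With the replicate number as a block, Aqp5 passed in LungMets against PT (1.17, adjusted p = 0.0260), LungMets against NMG (1.36, adjusted p = 0.0462) and NL against NMG (1.83, adjusted p = 0.0206), so that 8, 7 and 7 of the genes were called, with 6 for LungMets against NL and 2 for PT against NMG. No source says that a number marks an animal. Deviations correlated above 0.1 in 7 of 9 same-numbered pairs of LungMets and PT (-0.233 to 0.481) and in 0 of 3 pairs of the other groups, and 1 of 9 LungMets correlated best with the PT of its own number, so the numbers were not taken as pairs. Ager passed in LungMets against NL with date as a random block (adjusted p = 0.0499) and with array weights (-1.91, adjusted p = 0.0306). The causes of these changes were not tested.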
